A study of Mus musculus with 576 samples.

Results

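The clustered protocadherins are cell-surface adhesion proteins encoded by neighbouring gene clusters, alpha (Pcdha), beta (Pcdhb) and gamma (Pcdhg). All genes in the count tables whose symbol starts with Pcdha, Pcdhb or Pcdhg were taken, which gave 58 of 36658 gene identifiers. They comprise 14 Pcdha, 22 Pcdhb and 22 Pcdhg genes, and the Pcdhg genes divide into 12 Pcdhga, 7 Pcdhgb and 3 Pcdhgc. The symbol Pcdha11 stood on 2 identifiers, ENSMUSG00000007440 and ENSMUSG00000102206, which were kept apart. In the GRCm38 annotation used here (GENCODE M21) all 58 lie on the plus strand of chromosome 18, Pcdha from 36930184 to 37187661, Pcdhb from 37264938 to 37524479 and Pcdhg from 37661793 to 37841873.

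Each variable exon of these clusters has its own promoter, and a neuron switches on only a few of them, in a choice that appears largely random. In Pcdha and Pcdhg the chosen variable exon is spliced to constant exons that all members of the cluster share, whereas each Pcdhb gene is a single exon. The proteins bind like to like between cells, which lets a neuron tell its own branches from those of its neighbours. The last variable exons of Pcdha and Pcdhg, called C-types (Pcdhac1, Pcdhac2, Pcdhgc3, Pcdhgc4 and Pcdhgc5), are regulated differently from the other, alternate isoforms.

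Single GFP+ cells were sorted from mouse dorsal pancreas at embryonic day 12.5 and sequenced with Smart-seq2, a full-length method without molecular identifiers. In the Nkx2.5-Cre;mTmG and Nkx3.2-Cre;mTmG lines, Cre made under the control of either mesodermal gene turns on membrane GFP in the cells that expressed it and in their descendants. The Prox1-GFP line carries a GFP reporter on a bacterial artificial chromosome. Embryos were of mixed sex on a C57BL/6J background, and no line was treated. Each line filled 2 plates of 96 wells, 6A and 6B for Nkx2.5, 7A and 7B for Nkx3.2 and 8A and 8B for Prox1. No label ties a cell to an embryo, so the cells of a line stand for 1 sample, and every comparison is a description with no test. The Prox1 libraries also carry numbers of another range, so line and library batch cannot be told apart for them.

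Of 576 cells, 549 passed the study's limits of 1000 genes, 100000 counts and a mitochondrial share of 30%. Their totals ran from 224814 to 1512736 counts, with medians of 1056674 (Nkx2.5), 896115 (Nkx3.2) and 808006 (Prox1). The 27 cells left out held at most 57649 counts, and 2 of them had any member at 10 counts. Cell states were rebuilt by clustering, without the members, and named from marker genes. Mesenchymal-like cells numbered 86 and 80 on plates 6A and 6B, 76 and 60 on 7A and 7B, and 33 and 39 on 8A and 8B. The Prox1 line also held 89 epithelial-like and 19 endocrine-like cells, and the Nkx3.2 line 23 mesothelial-like and 32 mural-like cells. Mesothelial-like cells of the Nkx2.5 line (5) and mural-like cells of the other lines (2 and 5) were too few to describe alone. In the epithelial-like cells all 10 epithelial markers were above 5 CPM (a gene's counts per 1000000 counts, with each group's cells pooled first) and the 11 mesenchymal markers summed to 76.7 CPM, against 4942 CPM in mesenchymal-like cells of the same line, where Pdx1, Nkx6-1 and Cdh1 were below 1 CPM. The states of 485 cells were the same when each cell was scored on its own markers, and 1 epithelial-like cell carried immune markers.

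How well an isoform can be identified from reads of 75 bases differed between the clusters. On their longest transcripts, 91% to 100% of all 75-base reads from a Pcdhb gene (median 98.75%) matched no other gene. For Pcdhg the range was 35.3% to 82.9% (median 55.6%) and for Pcdha 3.0% to 52% (median 42.15%, Pcdha4 lowest). The quantifier divides a shared read between transcripts, which gives values that are not whole numbers. Such values made up 78.2% of all Pcdhg values above 0, 34% of the Pcdhb values and 37.5% of the Pcdha values, against 34.1% over all genes. Pcdhb14, with 91.7%, was as fractional as a Pcdhg gene.

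**Figure D1:**
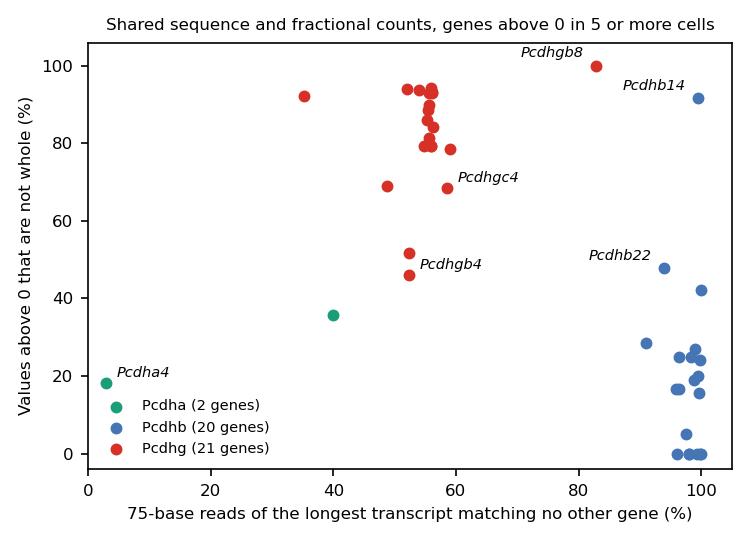
Each point is 1 gene above 0 in at least 5 cells, with the percentage of 75-base reads of its longest transcript that match no other gene on the x axis and the percentage of its values above 0 that are not whole on the y axis. Pcdhg genes (red) lie between 35.3% and 82.9% on the x axis and none below 46% on the y axis, whereas Pcdhb genes (blue) lie at 91% or above and, Pcdhb14 apart, at 47.8% or below.

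Pcdhgc4 stood apart in its annotation. One of its transcripts has 2272 bases, of which 2119 are shared constant exon and the rest are its own. Reads from the constant exons alone are therefore compatible with every Pcdhg gene and fill nearly all of this short transcript. Pcdhgc4 reached 10 counts in 286 cells (52.1% of passing cells), and in 65 of these no other Pcdhg gene was above 0.5 counts. Of the Pcdhgc4 values in those 65 cells 4.6% were not whole, against 90% in the other Pcdhgc4 cells. This contrast follows from the choice of cells, which had almost no other Pcdhg gene to divide a read with. It cannot show which transcript the reads came from. How much of the Pcdhgc4 signal comes from other Pcdhg transcripts was not tested. Isoform numbers, sets and totals that count it are therefore also given without it.

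Detection was set at 10 counts in a cell. Of the 58 members, 51 were detected in at least 1 passing cell: 8 Pcdha, 21 Pcdhb and all 22 Pcdhg genes. Pcdha1, Pcdha3, Pcdha6, Pcdha7, Pcdha8, Pcdha9 and Pcdhb1 were detected in 0 of 549 cells, which allows a share of up to 0.546% of cells each (3 cells in the total, the limit that a count of 0 leaves). More members were detected in the mesenchymal-like groups than in the epithelial-like cells. Of the Pcdhb genes, 20 were detected in at least 1 mesenchymal-like cell in each Nkx line and 17 in the 72 Prox1 mesenchymal-like cells, against 9 in the 89 epithelial-like cells. For Pcdhg these numbers were 20, 22 and 21 against 18, and for Pcdha 3, 3 and 3 against 1. These counts grow with the number of cells, so the mural-like (38 members in 32 cells) and endocrine-like groups (19 members in 19 cells) cannot be ranked with them. Among values that passed this limit, the median count in a cell, taken over genes, was 117.7 for Pcdhb, 83.4 for Pcdhg and 86.2 for Pcdha. Without molecular identifiers these counts do not give a number of molecules. Intervals below are 95% intervals, exact binomial for shares and exact Poisson for summed counts, and cover counting error only.

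The number of isoforms per cell differed between the lines and states. Mesenchymal-like cells had a mean of 1.64 isoforms per cell if Nkx2.5, 3.31 if Nkx3.2 and 2.71 if Prox1, with standard deviations over cells of 1.34, 1.57 and 1.51. Epithelial-like cells of the Prox1 line had 1.30, with a standard deviation of 1.13. No cell exceeded 9. Distributions overlapped widely. At least 2 isoforms were found in 48.8% of Nkx2.5 mesenchymal-like cells (interval 40.97% to 56.7%), 90.4% of Nkx3.2 (84.2% to 94.8%), 75% of Prox1 (63.4% to 84.5%) and 31.5% of epithelial-like cells (22.03% to 42.2%). Cells with no isoform at all were 21.7% of Nkx2.5 mesenchymal-like cells (interval 15.7% to 28.7%), 1.47% of Nkx3.2 (0.18% to 5.21%), 6.94% of Prox1 (2.29% to 15.5%) and 23.6% of epithelial-like cells (15.2% to 33.8%). Without Pcdhgc4 the cells with none were 37.95%, 4.41%, 12.5% and 46.1%, and those with at least 2 were 31.9%, 79.4%, 59.7% and 21.3%, in the same order.

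**Figure D2:**
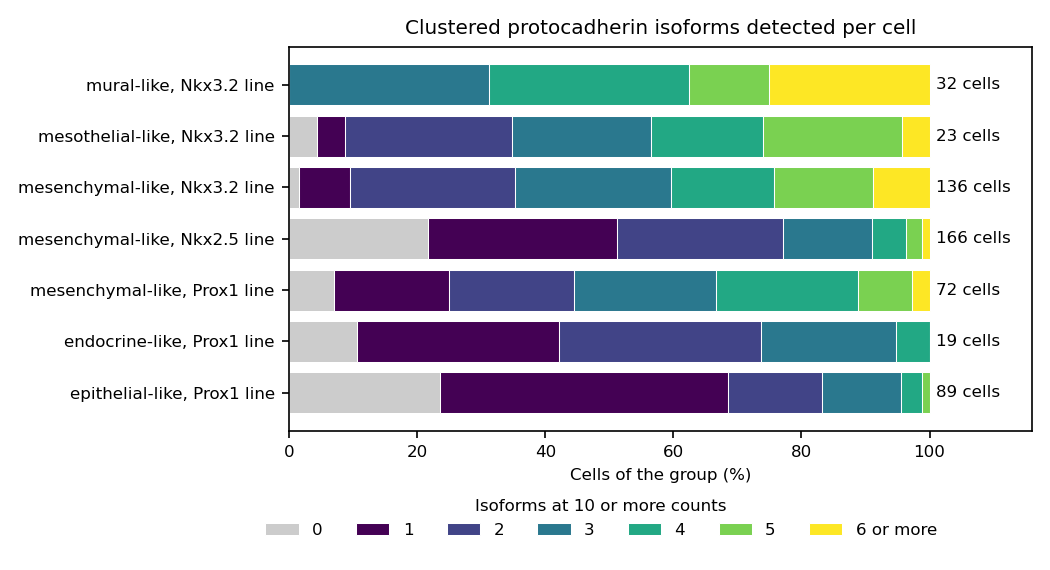
Bars show the percentage of cells of each state and line (x axis) with 0 to 5 or at least 6 isoforms at 10 or more counts. Pcdhgc4 is counted. Every mural-like cell of the Nkx3.2 line had at least 3 isoforms, while 21.7% of Nkx2.5 mesenchymal-like and 23.6% of epithelial-like cells had none.

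Plates of a line did not give equal values. Among mesenchymal-like cells the means were 1.97 on 6A and 1.29 on 6B, 3.36 on 7A and 3.25 on 7B, and 3.21 on 8A and 2.28 on 8B. Both Nkx3.2 plates were thus above both Nkx2.5 plates, while plate 8A of the Prox1 line came near the Nkx3.2 values and 8B did not. Epithelial-like cells had 1.53 on 8A and 1.0 on 8B, each below the mesenchymal-like cells of its own plate. Without Pcdhgc4 the mesenchymal-like means were 1.47 and 0.825, 2.83 and 2.63, and 2.42 and 1.72 on these plates, and the epithelial-like ones 1.04 and 0.658.

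Depth and the number of genes detected differed between the Nkx lines. Nkx2.5 mesenchymal-like cells had more counts than Nkx3.2 ones (median 1054465 against 900355) but fewer genes detected (5745.5 against 7221). The part of either in the isoform difference was not tested. With every cell thinned to 200000 counts, the mean was 1.40 in Nkx2.5, 2.55 in Nkx3.2 and 2.25 in Prox1 mesenchymal-like cells and 0.831 in epithelial-like cells. Without Pcdhgc4, and at full depth, the means were 1.16, 2.74, 2.04 and 0.876. The order of these groups was the same each way.

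Mural-like cells of the Nkx3.2 line had the highest mean among the groups with at least 19 cells. They carried 4 of 5 mural markers, without the late smooth muscle gene Myh11, at a sum of 740.2 CPM. The mesenchymal-like cells of the Nkx3.2 and Nkx2.5 lines held the same 4 at 422.3 and 535.2 CPM, and the mural-like cells also held the mesenchymal markers (7142 CPM), so marker presence does not set them apart. Acta2 and Tagln were the leading genes of their cluster, taken over all its 39 cells. These include 5 Prox1 cells, in which the mural markers summed to 4301 CPM, and their part in this lead was not tested. In the mural-like cells of the Nkx3.2 line the mean was 4.41 isoforms, with 3 as the lowest value, 4 as the median and 9 as the highest. The plate means were 4.50 and 4.31. Thinned to 200000 counts it was 3.59, and without Pcdhgc4 it was 3.88 at full depth. Mesothelial-like cells of the same line (from 0 to 6) had a mean of 3.26, beside 3.31 in its mesenchymal-like cells, and 2.96 without Pcdhgc4. Endocrine-like cells (from 0 to 4) had a mean of 1.79, and 1.16 without Pcdhgc4.

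Pcdha genes, many of which are prominent in neurons, were nearly silent in every group. Summed over the cluster, Pcdha stood at 1.10 to 8.38 CPM in the groups of at least 20 cells and at 15.5 CPM in the endocrine-like cells. The most often detected was Pcdha4, in 7 cells of 549 spread over 5 groups, and it is also the member whose reads are least unique. Pcdha2, Pcdha12 and both Pcdha11 identifiers were in 2 cells each. Both Pcdha2 cells were endocrine-like. The alpha C-types were as rare, with Pcdhac1 in 1 cell and Pcdhac2 in 2 cells, all mesenchymal-like.

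Pcdhb genes were detected at low frequency each and in many cells together. Pcdhb17 (42 cells), Pcdhb19 (40), Pcdhb20 (38) and Pcdhb16 (27) were in the most cells, and no Pcdhb gene exceeded 7.65% of cells. Per kilobase of transcript, Pcdhb20 had the highest pooled level of the cluster at 3.17 CPM, followed by Pcdhb7 at 2.31 CPM, which came from only 15 cells and reached 1138 counts in 1 of them. In 5 or fewer cells were Pcdhb3, Pcdhb4, Pcdhb6, Pcdhb10, Pcdhb12, Pcdhb13 and Pcdhb15.

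Alternate Pcdhg genes showed the same sparse pattern. Pcdhgb6 was detected in 60 cells (10.9%, interval 8.44% to 13.8%), Pcdhga7 in 42, Pcdhga12 in 41, Pcdhgb7 in 36 and Pcdhga5 in 35. Pcdhgb2, the rarest, was in 3 cells and Pcdhgb8 in 6. The C-types Pcdhgc3 (33.5% of cells, interval 29.6% to 37.6%) and Pcdhgc4 (52.1%, 47.8% to 56.3%) were far more frequent, with 23.5% and 25.5% of all Pcdhg counts and 11 and 11.1 CPM per kilobase. Pcdhgc5 was in 9 cells, none of them epithelial-like, endocrine-like or Nkx2.5 mesenchymal-like.

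**Figure D3:**
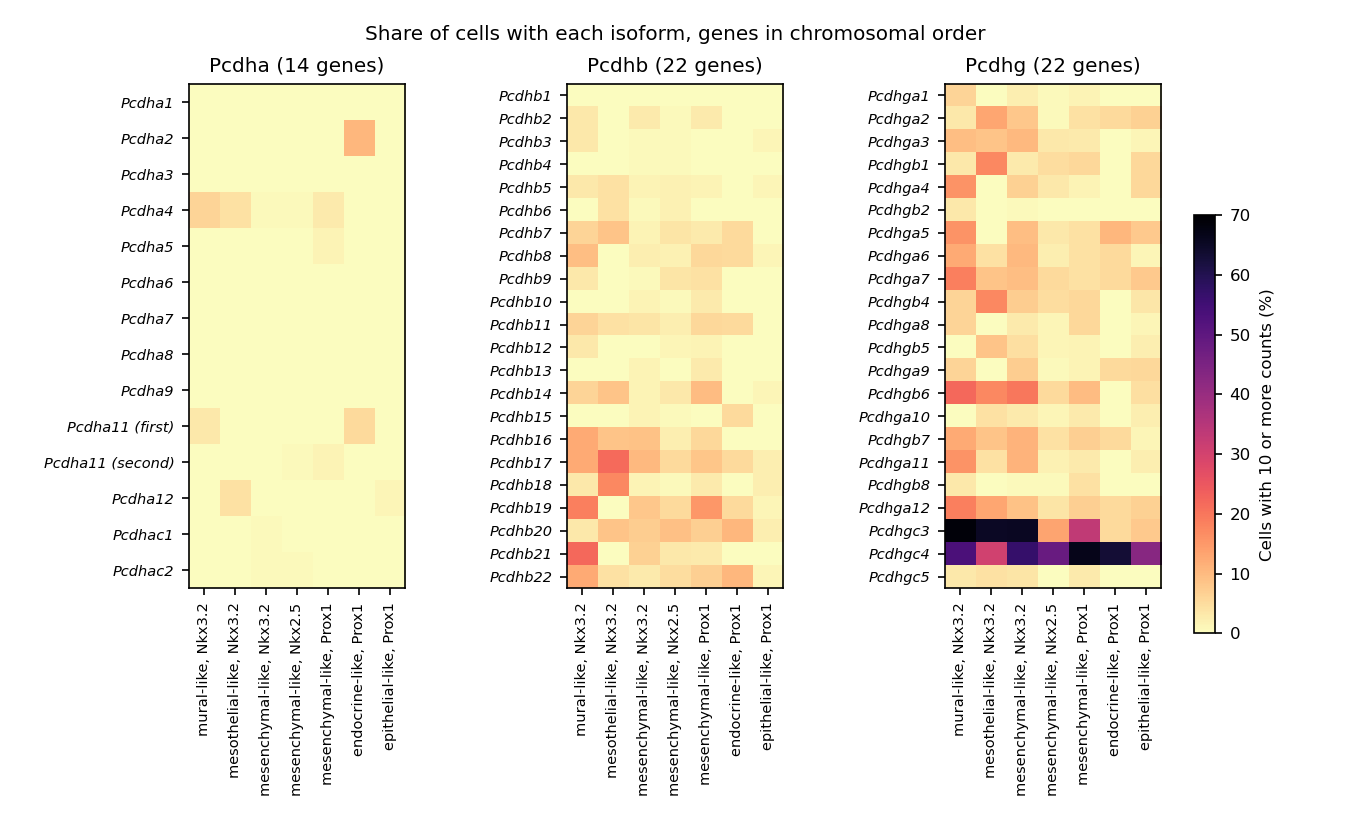
Each cell of the map gives the percentage of cells with at least 10 counts of 1 gene (rows, in chromosomal order) in 1 state and line (columns), on a colour scale from 0 to 70%. In the groups drawn, no gene other than Pcdhgc3 and Pcdhgc4 exceeds 21.9%, Pcdha rows are almost empty, and no Pcdhb gene exceeds 2.25% in the epithelial-like column.

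Within a cell, 1 isoform usually carried the Pcdhb signal and 1 the signal of the alternate Pcdhg genes. Of 237 cells with any Pcdhb isoform, 69.2% had exactly 1, 55 cells had 2, 15 had 3 and 3 had more. The leading Pcdhb isoform held a median of 99.5% of the cell's Pcdhb counts and over 90% of them in 70.5% of these cells. For the alternate Pcdhg genes, 62.9% of 313 cells had exactly 1 isoform, and the leading one held a median of 98.6%. This does not hold for the Pcdhg cluster with its C-types, where 37.3% of 453 cells had exactly 1 isoform, the leading one held a median of 75.7% and it held over 90% in 37.1% of cells. In mural-like cells of the Nkx3.2 line the alternate isoforms were more mixed, since 36.7% of 30 cells had a single alternate Pcdhg isoform and the leading one held a median of 74.1%. Because shared reads are divided between Pcdhg genes, a second Pcdhg isoform can be created by the division. Reads from the longest Pcdhb transcripts are nearly all unique. Even so, 22.9% of the Pcdhb values of at least 10 counts were not whole, so the Pcdhb figures are not free of divided reads.

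**Figure D4:**
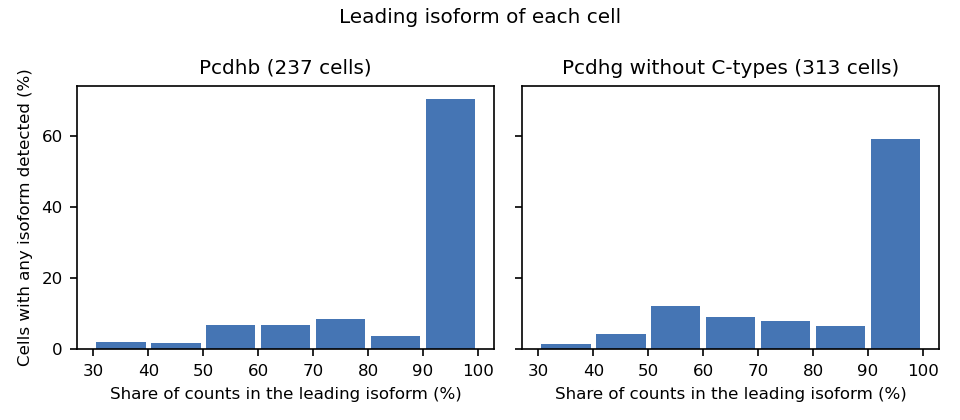
Histograms of the share of a cell's counts of the cluster held by its leading isoform (x axis, in steps of 10 percentage points), as a percentage of the 237 cells with any Pcdhb and the 313 cells with any alternate Pcdhg isoform (y axis). The step from 90% to 100% holds 70.5% of the first and 59.1% of the second.

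Cells differed in which isoforms they carried. The 237 Pcdhb cells held 80 different Pcdhb sets, of which Pcdhb20 alone and Pcdhb17 alone were the most frequent with 21 cells each, followed by Pcdhb19 alone with 18 and Pcdhb22 alone with 15. Among alternate Pcdhg sets, Pcdhgb6 alone led with 23 cells. Over all members, 481 cells with any isoform held 318 different sets, and 269 cells (55.9%) had a set that no other cell shared. Pcdhgc4 alone was the most frequent set, in 57 cells. Without Pcdhgc4, 424 cells held 285 sets, 57.1% of them had a set that no other cell shared, and Pcdhgc3 alone was the most frequent with 15 cells. Within their own group, all 32 Nkx3.2 mural-like cells differed from each other in their set, and a set seen once was carried by 80.6% of Nkx3.2 mesenchymal-like cells with any isoform, against 51.5% of Nkx2.5 mesenchymal-like and 54.4% of epithelial-like cells. Without Pcdhgc4 these shares were 74.6%, 55.3% and 68.8%, with all 32 mural-like sets still distinct, so the order of the last 2 groups depends on Pcdhgc4. Such shares also depend on how many cells a group holds, and they are not a separate measure of diversity.

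In mesenchymal-like cells, an alternate Pcdhg isoform was about as frequent with a Pcdhb isoform as without one. An alternate Pcdhg isoform was present in 37.3% of Nkx2.5 mesenchymal-like cells with a Pcdhb isoform and 32.3% of those without. The same shares were 80.6% and 83.8% for Nkx3.2 and 57.8% and 55.6% for Prox1, and epithelial-like cells had 41.7% and 45.5%. Smaller groups were less even, with 92.9% and 66.7% in mesothelial-like and 92% and 100% in mural-like cells of the Nkx3.2 line, and 14.3% of 7 and 50% of 12 endocrine-like cells. Pcdhgc4 was more frequent with Pcdhgc3 than without it in mesenchymal-like cells, at 68.2% against 45.1% (Nkx2.5), 60.7% against 48.9% (Nkx3.2) and 79.2% against 60.4% (Prox1). In mural-like cells of the Nkx3.2 line it was the reverse, 40.9% against 80%. These values are descriptions, and Pcdhgc3 and Pcdhgc4 share their constant exons.

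The Prox1 line allows epithelial-like and mesenchymal-like cells to be compared on the same plates. Pcdhb was the cluster that differed most. It stood at 146.8 CPM in mesenchymal-like cells (interval 143.6 to 150.02) and 12.6 CPM in epithelial-like cells (11.8 to 13.4), and the plates gave 171.1 and 13.9 CPM on 8A and 128.2 and 11 CPM on 8B. Any Pcdhb isoform was found in 62.5% of mesenchymal-like cells (interval 50.3% to 73.6%) and 13.5% of epithelial-like cells (7.17% to 22.4%), and no epithelial-like cell had more than 1. The Nkx lines fell on the mesenchymal side, with 122.7 and 84.5 CPM and 40.4% and 45.6% of cells. Both the share of cells and the counts per such cell were lower in the epithelial-like cells, since a cell with any Pcdhb isoform held a mean of 75 Pcdhb counts there and 178.8 in the mesenchymal-like cells of the line.

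Pcdhg differed less. All Pcdhg counts summed to 217.4 CPM in mesenchymal-like and 96.4 CPM in epithelial-like cells of the Prox1 line, and to 148.1 and 62.2 CPM without Pcdhgc4. The alternate isoforms stood at 95.4 and 55.9 CPM and were found in 56.9% (interval 44.7% to 68.6%) and 44.9% (34.4% to 55.9%) of cells, so these shares overlap in their counting error. The alternate isoforms of epithelial-like cells reached 74.7 CPM on 8A, above the 70.2 CPM of mesenchymal-like cells on 8B, but within each plate mesenchymal-like cells were higher. Pcdhgc4 was at 69.3 and 34.2 CPM and in 66.7% and 42.7% of cells. Pcdhgc3 differed more than either, with 51.6 CPM and 33.3% of mesenchymal-like cells (interval 22.7% to 45.4%) against 5.65 CPM and 7.87% of epithelial-like cells (3.22% to 15.5%).

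**Figure D5:**
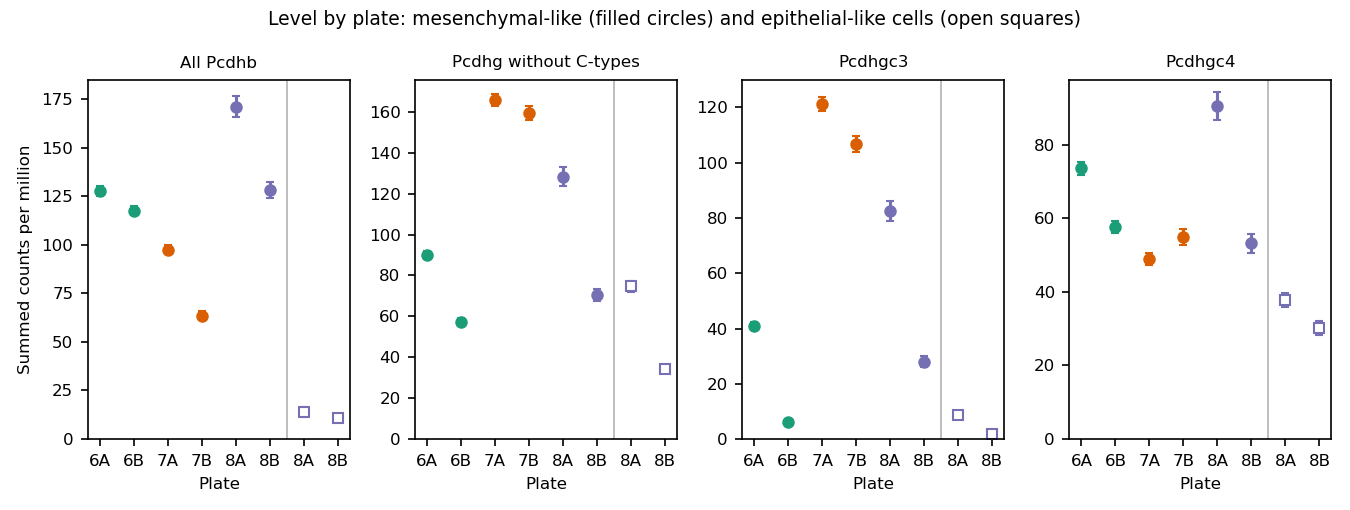
Summed CPM (y axes, starting at 0, each panel with its own scale) for all Pcdhb genes, Pcdhg genes without C-types, Pcdhgc3 and Pcdhgc4 on each plate, in mesenchymal-like cells (filled circles) and epithelial-like cells (open squares), with exact Poisson 95% intervals, and with colours for the lines. Pcdhb is at 63.5 to 171.1 CPM in every mesenchymal-like plate and at 11 and 13.9 CPM in the epithelial-like ones, while Pcdhgc3 is highest on both Nkx3.2 plates.

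Gene by gene, a member entered this comparison with at least 5 CPM in either group, and counted as past the fold at 2-fold or more in the same direction on both plates. Of 11 Pcdhb genes that entered, 10 were lower in epithelial-like cells and 0 higher, and of 12 Pcdhg genes 7 were lower and 1 higher. Over all 12137 genes that entered, 14.2% were lower and 16% higher. The median log2 ratio was -4.81 for Pcdhb and -1.12 for Pcdhg, beside a median of 0 for all genes, with genes that had no count in 1 group taken at their bound. A gene that enters through 1 group alone had to differ, here and in each comparison below. The counts of members past the fold therefore describe these genes only.

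Pcdhb16 stood at 15 CPM in mesenchymal-like cells (4 of 72 cells) and 0.013 CPM in epithelial-like cells (0 of 89). Pcdhb11 was at 11 CPM in 4 cells and had no count in epithelial-like cells. With a floor of 3 counts over that group the ratio was 275-fold, which rests on those 4 cells and does not bound the difference between cells. Pcdhb9 was at 5.53 CPM and also had no count in epithelial-like cells. Pcdhb19 was at 22.2 CPM in 11 mesenchymal-like cells and at 1.11 CPM in 1 epithelial-like cell. Pcdhb22 (15.4 and 0.548 CPM), Pcdhb14 (14.3 and 0.786 CPM) and Pcdhb7 (10.04 and 0.013 CPM) were lower too, and so were Pcdhb8, Pcdhb17 and Pcdhb20 by 8.07-, 7.84- and 4.08-fold. Most of these ratios rest on fewer than 12 cells.

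Among the Pcdhg genes, Pcdhga8 (5.52 and 0.455 CPM), Pcdhgc3, Pcdhgb7 (9.58 and 1.71 CPM), Pcdhgb4 (9.11 and 1.77 CPM), Pcdhgb6 (17.5 and 6.52 CPM), Pcdhgb1 (9.999 and 4.31 CPM) and Pcdhgc4 were lower in epithelial-like cells. Pcdhga5 was the single member on the higher side, with 6.45 CPM in 7 epithelial-like cells against 2.05 CPM in 3 mesenchymal-like cells. Pcdhga7, the alternate isoform with the highest epithelial-like level, did not differ past the fold (11.3 and 9.43 CPM, 7 and 3 cells). By subfamily, Pcdhga stood at 40.3 CPM in epithelial-like and 44.2 CPM in mesenchymal-like cells, and Pcdhgb at 15.5 and 51.2 CPM.

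Between mesenchymal-like cells of the Nkx3.2 and Nkx2.5 lines, Pcdhg had the largest difference in CPM of the 3 clusters. Summed Pcdhg counts were at 333.9 CPM (interval 330.6 to 337.1) in the Nkx3.2 and 164.4 CPM (162.5 to 166.3) in the Nkx2.5 line, and at 282.7 and 98.5 CPM without Pcdhgc4. The summed Pcdhb level was lower in the Nkx3.2 line at 84.5 against 122.7 CPM, and Pcdha was at 2.30 and 1.10 CPM. By share of cells Pcdhb was not lower, since any Pcdhb isoform was in 45.6% of Nkx3.2 and 40.4% of Nkx2.5 cells. The 5 highest cells held 21.6% and 25.5% of the Pcdhb counts, and 1 Nkx2.5 cell held 11.2%. Alternate Pcdhg isoforms were found in 82.4% of Nkx3.2 cells (interval 74.9% to 88.3%) and 34.3% of Nkx2.5 cells (27.1% to 42.1%). Their levels by plate were 165.9 and 159.5 CPM on 7A and 7B and 89.8 and 57.4 CPM on 6A and 6B. The 2 plate ranges do not overlap, although cells of 1 line share whatever embryos they came from.

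Pcdhgc3 was the member whose share of cells differed most between the Nkx lines. It was detected in 65.4% of Nkx3.2 mesenchymal-like cells (interval 56.8% to 73.4%), 13.3% of Nkx2.5 cells (8.50% to 19.4%) and 33.3% of Prox1 cells. Its level was 121.3 and 106.6 CPM on plates 7A and 7B, 40.8 and 6.19 CPM on 6A and 6B, and 82.4 and 28 CPM on 8A and 8B. The lines filled the clusters of mesenchymal-like cells in different shares, so Pcdhgc3 was also read within the 4 clusters in which each Nkx line had at least 10 cells. It was at 74.9 CPM in Nkx3.2 and 28.5 CPM in Nkx2.5 cells of cluster 0 (31 and 40 cells), and at 82.7 and 18.5 CPM in cluster 1 (29 and 31 cells). In cluster 3 it was at 130.9 and 42.8 CPM (42 and 21 cells) and in cluster 5 at 184.4 and 4.3 CPM (21 and 15 cells). The Nkx3.2 line was higher in each of them. Few Nkx2.5 cells made up its level, since 5 cells held 51.6% of the Pcdhgc3 counts there and 15.7% in the Nkx3.2 line. In the other states of the Nkx3.2 line Pcdhgc3 was detected in 65.2% of mesothelial-like and 68.8% of mural-like cells. The alternate Pcdhg isoforms were also higher in the Nkx3.2 line in each of the 4 clusters, at 147.4 to 181.7 CPM against 52.8 to 78.6 CPM. Pcdhb had no such order: it was lower in the Nkx3.2 line in clusters 0 (101.5 and 141.8 CPM) and 3 but higher in clusters 1 (96.4 and 88.2 CPM) and 5 (77.6 and 17.7 CPM). By level Pcdhgc4 did not follow Pcdhgc3, with 51.1 CPM in the Nkx3.2 and 65.9 CPM in the Nkx2.5 line. Its share of cells went the same way as that of Pcdhgc3, with 56.6% and 48.2%.

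Of 26 members that entered this comparison, 9 were lower in the Nkx2.5 line and 4 higher, with 6.1% of all genes lower and 5.24% higher by the same rule, which asks for the same direction in all 4 plate pairs. Lower in the Nkx2.5 line were Pcdhgc3 (4.79-fold), Pcdhgb6 (6.12 and 34.5 CPM, 9 and 27 cells), Pcdhga3 (3.06 and 18.2 CPM, 5 and 14 cells) and Pcdhga9 (0.316 and 7.04 CPM, 1 and 10 cells). Pcdhga6, Pcdhga2, Pcdhga11 and Pcdhga5 followed with 3.09- to 4.39-fold, and Pcdhb16 was 2.5-fold lower. Higher in the Nkx2.5 line were Pcdhb7 (15.7 and 2.03 CPM, 6 and 2 cells), Pcdhb14 (9.89 and 1.91 CPM, 5 and 2 cells), Pcdhb9 (13.03 and 2.59 CPM, 6 cells and 1 cell) and Pcdhgb1 (9.36 and 3.56 CPM, 8 and 4 cells). Of the lower members 8 are Pcdhg genes, and of the higher ones 3 are Pcdhb genes. The median log2 ratio of Nkx2.5 over Nkx3.2 was 1.05 for the Pcdhb and -1.63 for the Pcdhg genes that entered, beside 0.03 for all genes.

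The Prox1 mesenchymal-like cells were set against the same Nkx3.2 cells, so both comparisons share that group. Of 28 members that entered, 8 were lower and 4 higher in the Prox1 line, with 5.55% of all genes lower and 5.11% higher. Lower were Pcdhga3 (3.8 and 18.2 CPM), Pcdhga9, Pcdhga11, Pcdhga5, Pcdhga4, Pcdhga6, Pcdhgc3 (2.24-fold) and Pcdhb21 (0.902 and 7.19 CPM, 2 and 9 cells). Higher were Pcdhb22 (15.4 and 1.64 CPM, 5 and 4 cells), Pcdhb14 (14.3 and 1.91 CPM, 7 and 2 cells), Pcdhb11 (11 and 3.05 CPM, 4 and 5 cells) and Pcdhgb1 (9.999 and 3.56 CPM, 4 cells each). Line and library batch cannot be told apart in these values.

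Mural-like cells of the Nkx3.2 line, a comparison added after the data were seen, had the highest summed level of the groups with at least 19 cells, at 593.6 CPM over all members (interval 584.6 to 602.7) against 420.7 CPM in mesenchymal-like cells of the line, and 531.4 against 369.6 CPM without Pcdhgc4. The 4 proliferation markers moved with this comparison, at a sum of 39.6 CPM in the mural-like and 567.2 CPM in the mesenchymal-like cells, and their part in it was not tested. Mesenchymal-like cells of the line called G1 from their expression had 498.6 CPM over all members. Alternate Pcdhg stood at 278.9 against 163.4 CPM and Pcdhb at 154.8 against 84.5 CPM, each also higher on both plates (240.6 and 329.2 CPM, and 156.7 and 152.4 CPM, on 7A and 7B). Of 31 members that entered, 8 were higher and 0 lower, with 6.71% of all genes higher and 7.13% lower. These were Pcdha4 (6.74 and 0.316 CPM, 2 cells and 1 cell), Pcdhga1 (13.5 and 2.20 CPM, 2 and 3 cells), Pcdhb22 (9.26 and 1.64 CPM, 4 cells each), Pcdhga12 (24.4 and 6.78 CPM, 6 and 12 cells), Pcdhga4, Pcdhb8, Pcdhb21 and Pcdhga11. Pcdhgc3 was not among these 8, with 87.1 against 115.7 CPM. Pcdha4, Pcdhga1 and Pcdhb22 entered through the mural-like cells alone, so they had to be higher there, and each was found in at most 4 of these cells.

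Mesothelial-like cells, taken over both Nkx lines (28 cells, 23 of them Nkx3.2), had 25 members enter against mesenchymal-like cells of those lines. Of these 1 was higher and 8 lower, with 9.64% of all genes higher and 13.9% lower. The higher one was Pcdhb18 (19.4 and 1.46 CPM), found in 4 of 23 Nkx3.2 mesothelial-like cells. Pcdhb19, Pcdhb21, Pcdhb9, Pcdhga5 and Pcdhga4 had no count in mesothelial-like cells, beside 5.11 to 12.3 CPM in mesenchymal-like cells. They entered through the mesenchymal-like cells alone. Each was detected in only 2.0% to 7.29% of all passing cells, and 0 of 28 cells allows up to 12.34%, so their absence cannot be told from rarity. Pcdhb9 was also higher in the Nkx2.5 line, which gave few of the mesothelial-like cells. Pcdhgc4 (26.2 and 59.7 CPM), Pcdhga7 (4.70 and 14.04 CPM) and Pcdhb22 (2.65 and 5.49 CPM) were lower as well, Pcdhb22 by log2 ratios of only -0.26 and -0.14 within the lines. Of the 28 cells 20 came from plate 7B.

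Endocrine-like cells had 16 members enter against the other epithelial-like cells, with 3 higher and 2 lower beside 18% of all genes higher and 23.8% lower. Pcdhgc4 (70.03 and 34.2 CPM), Pcdhb20 (5.90 and 2.61 CPM, 2 cells each) and Pcdha2 (9.78 and 0 CPM) were higher, and Pcdhgb6 (0 and 6.52 CPM) and Pcdhga7 (2.73 and 11.3 CPM) lower. On plate 8B alone, 0 of the 3 higher and 0 of the 2 lower members entered and passed the fold. Pcdhgc4 was at 51.97 and 30.13 CPM there. Pcdhgb6 was detected in 10.9% of all passing cells, and 0 of 19 cells allows up to 17.65%, so its absence cannot be told from rarity. Summed Pcdhb was at 42 CPM in endocrine-like and 12.6 CPM in epithelial-like cells, and any Pcdhb isoform was in 36.8% (interval 16.3% to 61.6%) and 13.5% of cells. With 19 endocrine-like cells, 5 of them held 93% of these Pcdhb counts.

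Genes known to act on or with the clusters were read in the same comparisons. Promoter choice depends on the insulator protein CTCF and on cohesin, with DNA methylation and SMCHD1 as repressive layers. None of the 13 regulators (Ctcf, Rad21, Smc1a, Smc3, Stag1, Stag2, Nipbl, Wapl, Smchd1, Dnmt3a, Dnmt3b, Dnmt1 and Setdb1) was past the fold between epithelial-like and mesenchymal-like cells. The highest were Dnmt3a (339.3 and 426.0 CPM) and Smc3 (261.5 and 346.1 CPM). Between the Nkx lines, the cohesin subunit Rad21 (122.01 CPM in Nkx2.5 and 60.6 CPM in Nkx3.2) and the cohesin release factor Wapl (72.6 and 32.8 CPM) were higher in the Nkx2.5 line, 2 of 13 beside 5.24% of all genes. Wapl was past the fold in the Prox1 mesenchymal-like cells too, at 92.3 CPM. Lower in mesothelial-like than in mesenchymal-like cells of the Nkx lines were Wapl (26.6 and 55.9 CPM) and the DNA methyltransferase gene Dnmt3b (4.83 and 21.2 CPM), 2 of 13 beside 13.9% of all genes. Of the 28 mesothelial-like cells 23 were of the Nkx3.2 line, whose mesenchymal-like cells had Wapl at 32.8 CPM. Line and state are therefore mixed in the Wapl difference. Lower in endocrine-like than in epithelial-like cells were Dnmt3b (1.40 and 24.9 CPM), Dnmt1 (45.3 and 117.9 CPM) and Smchd1 (43.7 and 90 CPM), which at 3 of 13 is near the 23.8% of all genes that were lower there. The proliferation markers summed to 322.5 CPM in endocrine-like and 1167 CPM in epithelial-like cells. Whether these levels bear on the members was not tested.

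Of 12 genes for signalling partners of the cytoplasmic tails, 11 entered between epithelial-like and mesenchymal-like cells and 2 were lower, near the 14.2% of all genes lower there. These were Wasf1 (22.5 and 62.2 CPM) and Wasf2 (2.08-fold lower), which encode actin-regulating WAVE proteins. The highest of the list, the scaffold gene Rack1 (697 and 550.3 CPM) and the protease gene Adam10 (264.9 and 187.3 CPM), were not past the fold. Between the Nkx lines 1 of 11 partners was past it, beside 5.24% of all genes. This was the kinase gene Fyn (26.8 CPM in Nkx2.5 and 10.6 CPM in Nkx3.2). In mesothelial-like cells Wasf1 (67.5 and 29.9 CPM) and the kinase gene Ptk2b (8.63 and 0.14 CPM) were higher than in mesenchymal-like cells, 2 of 12 beside 9.64% of all genes. In endocrine-like cells Ptk2b (35.35 and 3.32 CPM) and Rock1 (154.4 and 67.4 CPM) were higher than in epithelial-like cells, and Rack1 (252.5 and 697 CPM) and Cyfip1 (89.1 and 209.25 CPM) lower. Over all genes 18% were higher and 23.8% lower there. No partner was past the fold in the other comparisons.

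Among the 12 protocadherin genes outside the clusters, 5 entered between epithelial-like and mesenchymal-like cells. Pcdh18 (2.39 and 499.1 CPM), Pcdh9 (16.7 and 86.1 CPM) and Pcdh7 (1.0 and 21.1 CPM) were lower in epithelial-like cells, and Pcdh1 (7.82 and 2.11 CPM) and Pcdh15 (22.4 and 0.02 CPM) higher. Between the Nkx2.5 and Nkx3.2 lines, Pcdh7 (25.25 and 12.3 CPM) and Pcdh19 (6.43 and 0.84 CPM) were higher and Pcdh1 (2.74 and 8.68 CPM) and Pcdh11x (0 and 9.56 CPM) lower in the former, while Pcdh18 (561.8 and 575.9 CPM) was not past the fold. Pcdh1 was also lower in the Prox1 line (2.11 CPM) than in the Nkx3.2 line. Against mesenchymal-like cells, mesothelial-like cells had less Pcdh18 (107.96 and 567.7 CPM), Pcdh9 (43.8 and 88.5 CPM) and Pcdh1 (0 and 5.24 CPM) and more Pcdh19 (22.8 and 4.08 CPM). Mural-like cells had more Pcdh19 (6.12 and 0.84 CPM) and no count of Pcdh11x. Endocrine-like cells had more Pcdh8 (32.4 and 0 CPM) and less Pcdh15 (1.14 and 22.4 CPM) than epithelial-like cells. Over all genes, 16% were higher and 14.2% lower in epithelial-like than in mesenchymal-like cells, and 5.24% and 6.1% between the Nkx lines. These shares were 5.11% and 5.55% for Prox1 against Nkx3.2, and 9.64% and 13.9% for mesothelial-like cells. They were 6.71% and 7.13% for mural-like cells, and 18% and 23.8% for endocrine-like cells.

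Of 9 large cadherins, 5 entered between epithelial-like and mesenchymal-like cells. Fat4 (20.3 and 174.1 CPM) and its ligand Dchs1 (9.60 and 111.9 CPM) were lower, the planar polarity genes Celsr1 (8.44 and 0.11 CPM) and Celsr2 (20.5 and 8.86 CPM) higher, and Fat1 (107.4 and 157.98 CPM) was not past the fold. None was past it between the Nkx lines, and Celsr2 was higher in the Prox1 (8.86 CPM) than in the Nkx3.2 line (2.11 CPM). Mesothelial-like cells had more Fat3 (27.3 and 3.0 CPM), Celsr1 (17.2 and 0.3 CPM) and Celsr2 (9.95 and 1.17 CPM) and less Fat4 (9.21 and 165.97 CPM) and Dchs1 (43.8 and 100.4 CPM) than mesenchymal-like cells. Mural-like cells had more Dchs2 (5.26 and 0.12 CPM) and Celsr2 (12.2 and 2.11 CPM) and less Fat4 (64.1 and 186.6 CPM). Endocrine-like cells had more Celsr2 (44.8 and 20.5 CPM) and Celsr3 (22.8 and 1.29 CPM) and less Fat1 (33.5 and 107.4 CPM), Fat4 (0.13 and 20.3 CPM), Dchs1 (0 and 9.60 CPM) and Celsr1 (4.06 and 8.44 CPM) than epithelial-like cells. In that comparison 6 large cadherins entered, and 18% of all genes were higher and 23.8% lower. The shares over all genes in the other comparisons are those given above for the protocadherins outside the clusters.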

How the data were processed

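Per the labels and the study's methods, reads were trimmed with Trim Galore 0.6.5 and pseudoaligned to the mouse transcriptome (GRCm38, mm10) with kallisto, and the authors summed transcript estimates to genes. The deposited values are estimated counts per gene and cell, not normalised; the annotation release is not given in the sources used here. Shared reads are divided between transcripts, which affects Pcdha and Pcdhg genes most. Every value column was tied to a sample. Of 36658 gene identifiers, 35866 had a symbol in GENCODE M21, the annotation used for names and positions.

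Cells passed at 1000 genes, 100000 counts and 30% mitochondrial counts, the study's limits. Clusters (Seurat 5.3.0, R 4.3.3, 2000 variable genes, 20 components, resolution 1.9) left out the members, 28 of which would have been variable. No doublet caller was run on these sorted wells. Counts were summed per state, line and plate and divided by summed totals (CPM; pandas 2.3.3, NumPy 2.4.6). Intervals came from SciPy 1.17.1. There are no replicates, so no test was run, and intervals leave out variation between cells and embryos. The fold rule was tried on simulated data, with changes set only in genes of at least 20 CPM and counts spread over all cells. How it behaves for genes found in few cells, as most members are, was not tested.

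Named were the 4 most often detected members of each cluster, all C-types, up to 8 members past the fold per comparison, members never detected, listed genes past the fold and, for the first comparison, the 2 highest of each list. One listed gene is not reported here. Pcdhga5 as the fifth Pcdhg, the rarest members, and members past the eighth or not past the fold were named after their values were seen. Members and lists were chosen with earlier results of these data known. Alternatives were the detection limit, thinning, scaling, entry level, cell filter, marker-based states and single plates.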

Additional observations from a re-analysis of the deposited data

How the results depend on the processing

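No paired analysis was possible because no test was run and no label pairs plates of different lines. Under the alternatives 94 values stayed within the SD between plates, within 1.5 times for counts or within the binomial interval for shares, 35 moved more and 0 reversed. Only the ratios could be called reversed, since the counts and shares were called as staying or moving only. The ratio of isoforms per cell, epithelial-like over Prox1 mesenchymal-like, was 0.481, and became 0.649 at 1 count, 0.525 at 5, 0.44 at 30, 0.37 thinned and 0.438 on the second plate. The Pcdhb ratio of 0.086 was 0.091 with states from each cell's markers and 0.081 on the first plate, and the Pcdhg ratio of 0.443 was 0.414 and 0.404. Alternatives chosen after seeing the data gave 0.429 and 0.42 for isoforms and Pcdhg without Pcdhgc4, and 0.09 for Pcdhb with mural-like cells included. The Pcdhg ratio of Nkx3.2 over Nkx2.5 mesenchymal-like cells, 2.03, was 2.69 on the second plates and 2.87 without Pcdhgc4.

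Counts of members past the fold depend on the entry level, since few members reach 20 CPM and fewer genes are then compared. Entry at 20 CPM left 0 higher and 3 lower for epithelial-like cells, 0 and 2 for Nkx2.5 against Nkx3.2, 0 and 1 for Prox1 against Nkx3.2, 0 and 1 for mesothelial-like cells, and 1 and 0 for endocrine-like cells. Entry at 1 CPM gave 2 higher for epithelial-like, 7 higher for Prox1, 14 lower for mesothelial-like and 5 lower for endocrine-like cells. On the first plate alone 2 were higher in epithelial-like cells, and 7 higher and 6 lower in endocrine-like cells, and on the second 4 were higher in epithelial-like cells, without Pcdhga5, which was below the entry level there. The second plate alone kept 0 of the members reported for endocrine-like cells. Marker-based states left 1 lower in endocrine-like cells, and it was not one of the 2 reported. Among values of at least 10 counts, 22.9% of Pcdhb and 83.4% of Pcdhg values were not whole. The cause of the other moves was not tested. An isoform under 10 counts in a cell was not counted, so depth limits every count of isoforms.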

Other observations

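Cell cycle phase, called from expression alone, was not part of the comparisons. Summed Pcdhb was lowest in mesenchymal-like cells called G2M in each line, at 52.6 CPM in Nkx2.5 (34 cells), 33.1 CPM in Nkx3.2 (33 cells) and 94.7 CPM in Prox1 (19 cells). Cells called G1 had 114.2, 99.4 and 185.2 CPM, and cells called S 185.9, 100.3 and 137.8 CPM. Any Pcdhb isoform was found in 32.4%, 27.3% and 63.2% of G2M cells in 39.8%, 51.8% and 65.6% of G1 cells and in 46.9%, 51.1% and 57.1% of S cells, so by share G2M was not the lowest phase in the Prox1 line. The share intervals overlap in every line, and no test was run. Alternate Pcdhg isoforms were also lowest in G2M, at 60.7, 133.7 and 48.1 CPM, against 75.2, 187.5 and 112.9 CPM in G1 and 81.9, 155.8 and 114.9 CPM in S. Pcdhgc3 was not lowest in G2M in the Nkx3.2 line (131.96 CPM, against 74.8 CPM in S and 144.2 CPM in G1) or in the Prox1 line (72.99 CPM, against 38.5 and 46.3 CPM), and in the Nkx2.5 line it was nearly equal in G2M (16.9 CPM) and S (17.1 CPM).

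Cluster 9, of mesenchymal-like cells, had 498.5 CPM over all members in 24 cells, the highest of the 6 mesenchymal-like clusters, which otherwise lay between 304.3 and 378.6 CPM. Without Pcdhgc4 it had 418.5 CPM, and the other 5 lay between 257.1 and 301.3 CPM.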
